A study of Mus musculus with 8 samples.

Results

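RNA of newborn mice that lack Lox (KO) was set against RNA of wild-type mice (WT) over the whole aorta sampled, with the difference averaged over its ascending and descending segments. All 8 arrays of the series entered this comparison, 4 KO and 4 WT. The 4 groups were KO ascending aorta, KO descending aorta, WT ascending aorta and WT descending aorta, with 2 arrays each. KO pups carried a Lox knockout, WT pups were the unmodified control, and all were on the albino C57BL/6J background and were killed at p0, the day of birth. Each array measured 1 pool of 8 pups of like genotype and segment. Per the labels, the ascending segment started at the aortic valve and stopped at the ductus arteriosus, and the descending segment ended at the diaphragm. The labels give neither the construction of the knockout allele nor the sex of the pups, and do not say whether ascending and descending pools came from the same pups. The p-values therefore measure the spread between pools, and may count related pools as separate.

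Lysyl oxidase, the product of Lox, is a copper enzyme that is secreted by smooth muscle cells and fibroblasts. It oxidises lysines of tropoelastin and collagen so that the chains can crosslink into elastic lamellae and fibrils, which give the aorta its recoil and strength. Mice without it are born with a weak, fragmented aortic wall and die around birth of aneurysm or rupture of vessels or diaphragm.

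All gene levels below are log2 RMA values, array brightness after background correction, quantile scaling and summary over a gene's probes, so that 1 unit is a 2-fold difference. They are listed as the 2 ascending pools and then the 2 descending pools. A difference is KO minus WT, averaged over the segments. A gene is said to rise, fall or be called when limma's adjusted p is under 0.05 over 16635 genes tested. The 4 KO and 4 WT arrays do not overlap where every KO array lies above, or every KO array lies below, all WT arrays. Differences under 1.5-fold are called small, those of 1.5-fold to 2-fold medium, and those of 2-fold or more large.

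The median of an array was 5.11 to 5.19, and the first principal component, with 34.2% of the variance, separated KO from WT arrays. Lox was 8.87, 8.74, 8.56 and 8.51 in KO pools, against 11.47, 11.60, 11.41 and 11.24 in WT pools. The groups did not overlap, and Lox fell by 2.76 (SE 0.08, adjusted p = 2.62e-06), 6.79-fold, with differences of -2.73 in the ascending and -2.80 in the descending aorta. A signal above the dim limit of 4.11 remained on the KO arrays, and whether its probes fall inside the sequence altered in the knockout was not analysed here. Of the related enzymes, Loxl3 was 7.71, 7.71, 8.04 and 8.0 in KO pools, against 7.37, 7.34, 7.48 and 7.61 in WT pools. Its KO arrays lay above its WT arrays, and it rose by 0.41 (SE 0.07, adjusted p = 0.00989). Loxl1, which acts on elastic fibres, differed by 0.17 (adjusted p = 0.232) and Loxl4 by 0.064 (adjusted p = 0.606), neither of them called. Loxl2 shares its probe set with another gene and was not analysed here. The summed signal of 32 smooth muscle contractile genes was 37470 to 40780 on KO arrays and 38480 to 40090 on WT arrays. These ranges overlap, and a sum does not show which tissues a pool held.

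The averaged difference was called for 1902 genes, 11.4% of those tested, of which 1033 (6.21%) were higher and 869 (5.22%) lower in KO aorta. For 1495 genes (8.99%) the difference was called and the 4 and 4 arrays did not overlap. Most of these changes were small. The small band held 1129 genes (6.79%), 610 higher (3.67%) and 519 lower (3.12%), the medium band 280 (1.68%), 162 higher (0.974%) and 118 lower (0.709%), and the large band 86 (0.517%), 60 higher (0.361%) and 26 lower (0.156%). Without regard to the test, 2828 genes (17%) had arrays that did not overlap, 1476 (8.87%) above and 1352 (8.13%) below. Among the small changes that did not overlap, the median size was 0.39 for rises and 0.40 for falls, and the median standard error 0.08.

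The 407 called genes whose arrays overlapped included 300 whose KO and WT arrays were apart within each segment, so that only arrays of different segments overlapped. The segments gave the same sign for 1887 called genes and opposite signs for 15. In 1257 of the called genes (7.56% of those tested) neither segment alone passed, and in 164 (0.986%) both did. By itself the ascending segment called 455 genes (2.74%) and the descending 380 (2.28%). No gene was called for a difference between the segments' effects in limma's interaction term, where 932 genes (5.6%) had an unadjusted p under 0.05. That does not show that the effects were alike, with 2 arrays a group.

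**Figure D1:**
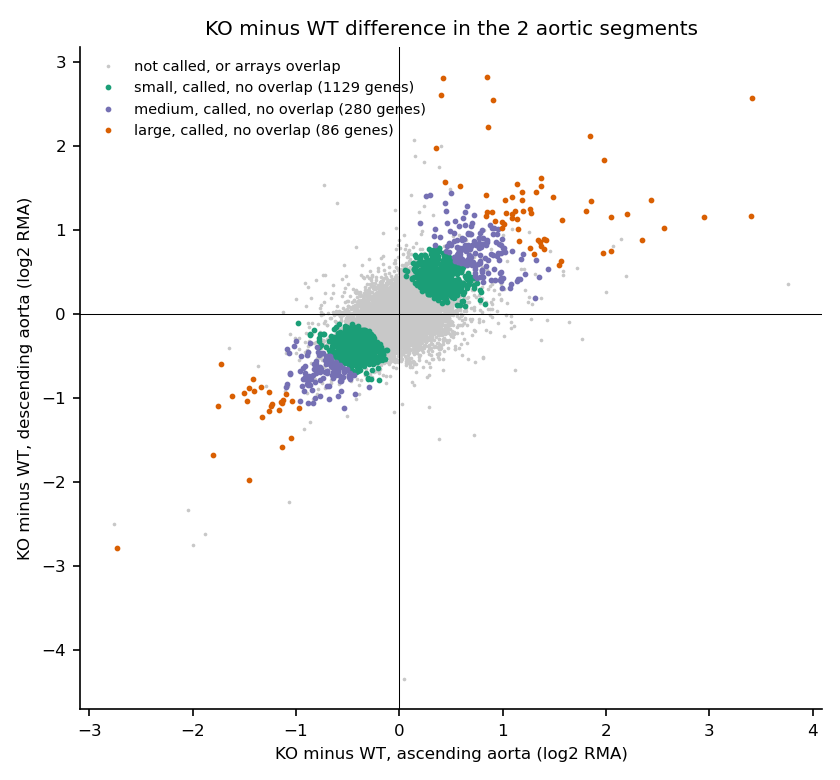
Difference in log2 RMA between KO and WT arrays in the ascending aorta (x axis) against that in the descending aorta (y axis), 1 point per gene tested. Grey points were not called or overlapped, and coloured points are the 1129 small, 280 medium and 86 large called changes whose 4 KO and 4 WT arrays did not overlap. Both axes use the same arrays as the averaged difference, so the coloured points were chosen to lie in the upper right or lower left.

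The number of calls depended on each array. It was 1063, 1194, 1005 and 1193 without the first and second KO ascending and the first and second KO descending array, and 1317, 978, 782 and 1158 without the corresponding WT arrays. Counts over a gene list are therefore followed by their share of the members tested and their range over these 8 fits. The 171 called genes given with values below all kept their call with any 1 array left out. Called genes of the naming rule that did not are not given with values, so this follows from the choice of genes. The arrays of 150 of the 171 did not overlap. In 19 the KO and WT arrays were apart within each segment but overlapped across segments: Cilp, Cthrc1, Col12a1, Tln2, Ano1, Bmp2, Hbegf, Vegfd, Plxna4, Cd36, Acadl, Adipoq, Npas2, Plk2, Ccl11, Kdr, Aplnr, Flt1 and Adgrl4. Mmp8 and Sftpc overlapped within a segment. A list is to be read beside all genes tested, of which 6.21% rose and 5.22% fell, at a median difference of 0.0036.

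Given first are the 8 rises and 8 falls with the smallest p among the small changes without array overlap. Chosen that way, they do not show how tight the small band was as a whole. Ltbp2, which encodes a latent TGF-beta binding protein of microfibrils, was 10.22, 10.18, 9.99 and 9.95 in KO pools, against 9.68, 9.68, 9.30 and 9.37 in WT pools. It rose by 0.57 (SE 0.07, adjusted p = 0.00295), with 0.52 in the ascending and 0.63 in the descending aorta. Nubp1, a factor of cytosolic iron-sulphur cluster assembly, was 6.87, 6.90, 6.77 and 6.75 in KO pools, against 6.25, 6.18, 6.25 and 6.29 in WT pools. It rose by 0.58 (SE 0.07, adjusted p = 0.00285), with 0.66 in the ascending and 0.49 in the descending aorta. Itgb3, the beta subunit of the vitronectin and platelet fibrinogen receptors, was 8.77, 8.60, 8.66 and 8.57 in KO pools, against 8.12, 8.03, 8.07 and 8.05 in WT pools, and rose by 0.58 (SE 0.08, adjusted p = 0.00445).

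Adamts12, a metalloprotease that cuts cartilage matrix protein, rose by 0.54 (SE 0.07, adjusted p = 0.00475). Ccnd2, the G1 cyclin D2, rose by 0.56 (SE 0.07, adjusted p = 0.00396), the kinase gene Hunk by 0.55, the splicing regulator Tra2a by 0.53 and Specc1 by 0.56. For each of these 8 genes the lowest KO array lay above the highest WT array, as the choice of genes required.

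On the falling side, Vcan, the large chondroitin sulphate proteoglycan versican, was 10.57, 10.74, 10.41 and 10.43 in KO pools, against 11.19, 11.18, 10.96 and 10.93 in WT pools. It fell by 0.53 (SE 0.07, adjusted p = 0.00507). Ppargc1a, the coactivator that drives mitochondrial gene expression, was 6.37, 6.49, 6.57 and 6.67 in KO pools, against 7.08, 7.12, 7.0 and 7.25 in WT pools, and fell by 0.58 (SE 0.08, adjusted p = 0.00559). Both were lower on every KO array than on any WT array. Acot2, a mitochondrial acyl-CoA thioesterase, fell by 0.54 (SE 0.07, adjusted p = 0.00451), with -0.30 in the ascending and -0.77 in the descending aorta. The protocadherin gene Pcdh10 fell by 0.55, with -0.77 in the ascending and -0.33 in the descending aorta. The molybdenum cofactor gene Mocs1 fell by 0.57, the deubiquitinase gene Mindy1 by 0.52 and Tmem131l by 0.58.

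Abi3bp, which encodes a matrix protein that binds collagen, was the least even across segments of these falls. It was 9.12, 9.14, 9.76 and 9.79 in KO pools, against 10.16, 10.05, 9.86 and 9.90 in WT pools. Its arrays did not overlap, but the difference was -0.98 in the ascending and -0.11 in the descending aorta, and the interaction had an unadjusted p of 0.000169 and an adjusted p of 0.469. With genotype plus segment as the design it was not called (limma, adjusted p = 0.052).

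**Figure D2:**
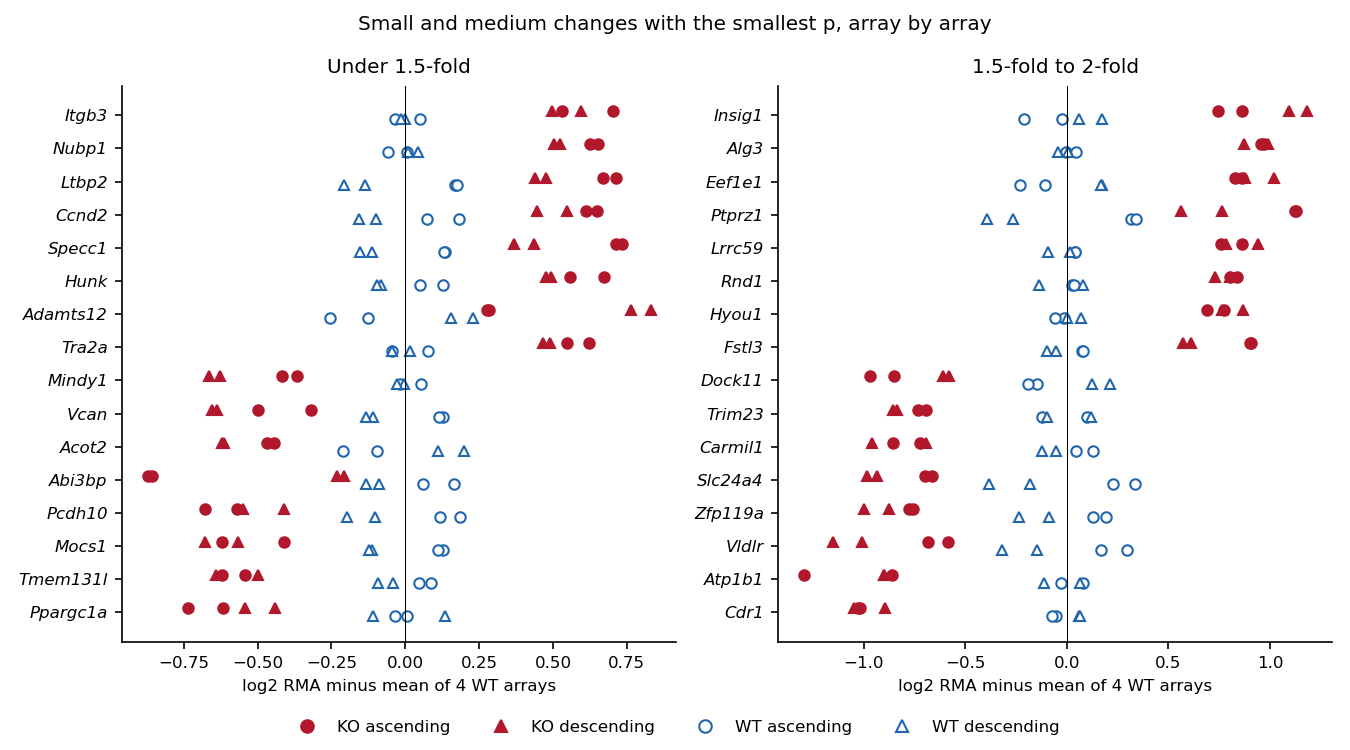
Log2 RMA of each array minus the mean of the gene's 4 WT arrays (x axis), for the 8 rises and 8 falls with the smallest p in the small band (left panel) and in the medium band (right panel). Filled points are the 4 KO arrays, open points the 4 WT arrays, and circles mark ascending and triangles descending pools; in each row the filled points lie on 1 side of the open points, as the choice of genes required.

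Medium rises included Alg3, a mannosyltransferase that builds the N-glycan precursor in the endoplasmic reticulum (ER). It was 7.91, 7.93, 7.94 and 7.82 in KO pools, against 6.95, 7.0, 6.96 and 6.91 in WT pools, and rose by 0.95 (SE 0.07, adjusted p = 0.000403), 1.93-fold, with 0.94 in the ascending and 0.95 in the descending aorta. Eef1e1, a scaffold of the aminoacyl-tRNA synthetase complex, was 7.40, 7.43, 7.59 and 7.44 in KO pools, against 6.34, 6.46, 6.74 and 6.74 in WT pools. The gap between the groups was wider than the spread within them, and it rose by 0.90 (SE 0.07, adjusted p = 0.000741).

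Lrrc59, a ribosome-associated protein of the ER membrane, rose by 0.83 (SE 0.08, adjusted p = 0.00114). Fstl3, a secreted inhibitor of activin and related ligands, rose by 0.75 (SE 0.07, adjusted p = 0.00106). Ptprz1, a receptor tyrosine phosphatase that binds pleiotrophin, rose by 0.89 and Rnd1, whose protein loosens the actin cytoskeleton, by 0.79. Insig1 and Hyou1, in the same band, are described with their pathways.

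Among the medium falls, Cdr1 was 5.30, 5.28, 5.42 and 5.26 in KO pools, against 6.26, 6.24, 6.37 and 6.38 in WT pools and fell by 1.00 (SE 0.07, adjusted p = 0.000382). The locus is known for a circular antisense RNA, and the deposited values do not tell transcripts of the strands apart. Vldlr, a receptor of the LDL receptor family that takes up triglyceride-rich lipoproteins, was 7.43, 7.53, 6.96 and 7.10 in KO pools, against 8.41, 8.28, 7.97 and 7.79 in WT pools. Every KO array was lower than every WT array, and it fell by 0.86 (SE 0.08, adjusted p = 0.00126). Atp1b1, the beta subunit of the sodium pump, fell by 0.99 (SE 0.11, adjusted p = 0.00204). Slc24a4, a potassium-dependent sodium-calcium exchanger, fell by 0.82, Dock11, an activator of Cdc42, by 0.75, and Carmil1, a regulator of actin capping protein, by 0.81. The ubiquitin ligase gene Trim23 fell by 0.78 and the zinc finger gene Zfp119a by 0.85.

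The large changes were fewer. The largest rise among named genes was Col8a1, a short-chain collagen of vessel wall and endothelium, which rose by 2.99 (SE 0.15, adjusted p = 0.00012), with 3.41 in the ascending and 2.57 in the descending aorta. Ptgs2, the inducible cyclooxygenase, rose by 2.05 (SE 0.13, adjusted p = 0.000319), with 2.95 in the ascending and 1.15 in the descending aorta. Ccn5, a matricellular protein of smooth muscle, rose by 1.98, Igfbp2, which binds insulin-like growth factors, by 1.91, and the stefin-related genes Cstdc4 and Stfa3 by 2.28 and 1.89. The stefin genes are near-identical copies, so their signals are uncertain. Among the named falls without array overlap, those next in size to Lox were Galnt15, a glycosyltransferase of O-glycans, by 1.74, Angptl4, an inhibitor of lipoprotein lipase, by 1.43, Npy1r, a neuropeptide Y receptor, by 1.36, and Fam107a by 1.30.

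Of 11 fibrillar collagen genes 1 rose (9.09%, 1 with any 1 array left out) and none fell, at a median of 0.094 (0.19 ascending, 0.078 descending). The gene that rose was Col11a1, which nucleates fibrils in cartilage, at 7.44, 7.57, 8.43 and 8.30 in KO pools, against 5.61, 5.79, 7.11 and 7.17 in WT pools. Its KO and WT arrays did not overlap, and it rose by 1.51 (SE 0.08, adjusted p = 0.00012). Col1a1, the main fibrillar collagen of the wall, differed by 0.20 (adjusted p = 0.115) and Col5a1 by 0.24 (adjusted p = 0.084), neither of them called. In the 19 elastic fibre genes 3 rose (15.8%, 1 to 3 with 1 array left out) and none fell, at a median of 0.15 (0.12 ascending, 0.14 descending). Ltbp2 was the 1 that held in each fit. The fibrillin gene Fbn2 differed by 0.30 (adjusted p = 0.0752).

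Procollagen is modified by hydroxylases and folded by isomerases in the ER. Of 24 genes of this kind 9 rose (37.5%, 4 to 8 with 1 array left out, 4 without the first WT descending array) and 1 fell (4.17%, 0 to 1 with 1 array left out), at a median of 0.23 (0.21 ascending, 0.19 descending). P4ha1, the catalytic subunit of prolyl 4-hydroxylase, was 8.54, 8.51, 8.89 and 8.71 in KO pools, against 7.53, 7.49, 7.70 and 7.76 in WT pools. The KO arrays lay above the WT arrays in both segments, and P4ha1 rose by 1.04 (SE 0.07, adjusted p = 0.000382). Plod2, which hydroxylates the telopeptide lysines on which lysyl oxidase acts, was 9.33, 9.42, 9.54 and 9.32 in KO pools, against 8.73, 8.69, 8.40 and 8.54 in WT pools, and rose by 0.81 (SE 0.08, adjusted p = 0.00158). P4ha3 rose by 0.54 and Fkbp14, a prolyl isomerase of the ER that folds procollagen, by 0.80. P4hb, the disulphide isomerase subunit, differed by 0.20 (adjusted p = 0.089) and was not called.

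Of 29 matricellular genes 11 rose (37.9%, 10 to 12 with 1 array left out) and 4 fell (13.8%, 0 to 5 with 1 array left out, 0 without the second WT ascending array or the first WT descending array). Thbs1, thrombospondin 1, which can activate latent TGF-beta, was 10.48, 10.56, 9.99 and 9.70 in KO pools, against 9.18, 8.72, 8.80 and 8.64 in WT pools. It rose by 1.35 (SE 0.12, adjusted p = 0.00105). Spon2 rose by 0.90 and Cilp, a TGF-beta binding matrix protein, by 0.72. Ccn1 and Ccn2, targets of YAP and serum response factor, rose by 1.11 and 0.61, and Cthrc1, which arterial injury induces, by 0.50. With its probe sets averaged, Ccn2 differed by 0.30 in limma's fit (adjusted p = 0.0782) and was not called. These last 3 were named after their values were seen. Of 32 proteoglycan genes 3 rose (9.38%, 3 with any 1 array left out) and 4 fell (12.5%, 2 to 6 with 1 array left out, 2 without the second KO descending array or the first WT descending array). Fmod, fibromodulin, a small leucine-rich protein that binds collagen and modulates its crosslinking, rose by 0.98 (SE 0.10, adjusted p = 0.00175). The related Prelp rose by 0.63, with 0.34 in the ascending and 0.92 in the descending aorta. Over the alternative settings the difference of Prelp ran from 0.44 to 0.68. Ecm2 fell by 0.78. Col12a1, a fibril-associated collagen, rose by 0.52.

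Among 32 metalloproteases and inhibitors 4 rose (12.5%, 3 to 4 with 1 array left out) and 1 fell (3.12%, 1 to 2 with 1 array left out, 2 without the second WT descending array). Adamts8 rose by 1.32 (SE 0.07, adjusted p = 0.00012), and Timp4, a tissue inhibitor of metalloproteases, fell by 1.27 (SE 0.09, adjusted p = 0.000382). Over the alternative settings the difference of Adamts8 ran from 0.91 to 1.33, so its band depended on the setting. Mmp8, the neutrophil collagenase, rose by 1.13, with 1.99 in the ascending and 0.26 in the descending aorta, and was not called with genotype plus segment as the design (limma, adjusted p = 0.0572). The stromal protease gene Mmp11 differed by -0.27 (adjusted p = 0.0593) and was not called.

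Adhesion receptors rose where they were called. Of 32 integrin and focal adhesion genes 8 rose (25%, 4 to 6 with 1 array left out, 4 without the first KO ascending array or the second KO ascending array or the first KO descending array or the second WT descending array) and none fell, at a median of 0.069 (0.066 ascending, 0.11 descending). Itga11, the collagen receptor subunit of fibroblasts, was 6.90, 7.14, 8.15 and 7.97 in KO pools, against 5.75, 5.55, 6.48 and 6.60 in WT pools. It rose by 1.45 (SE 0.09, adjusted p = 0.000319), without overlap of the arrays. Itga4, which binds VCAM1 and fibronectin, rose by 1.13, and Tln2, a talin that links integrins to actin, by 0.49. Itga5, the fibronectin receptor subunit, differed by 0.32 (adjusted p = 0.153) and was not called.

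Of 32 contractile genes 3 rose (9.38%, 1 to 2 with 1 array left out) and 2 fell (6.25%, 1 to 2 with 1 array left out), at a median of -0.023 (-0.011 ascending, -0.028 descending). These shares are near those over all genes tested. Ppp1r14a, the CPI-17 inhibitor of myosin phosphatase, was 8.98, 8.78, 9.17 and 8.92 in KO pools, against 7.62, 7.82, 8.09 and 8.27 in WT pools, and rose by 1.01 (SE 0.10, adjusted p = 0.00131). Mustn1, a muscle protein gene, fell by 0.85 (SE 0.10, adjusted p = 0.00249). Cald1, caldesmon, differed by 0.25 (adjusted p = 0.051) and was not called.

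Of 39 channel and calcium-handling genes 9 fell (23.1%, 6 to 10 with 1 array left out) and 2 rose (5.13%, 0 to 2 with 1 array left out, 0 without the second KO ascending array or the first KO descending array or the second WT ascending array or the second WT descending array), at a median of -0.15 (-0.16 ascending, -0.17 descending). Kcnma1, the pore subunit of the large-conductance calcium-activated potassium channel that relaxes smooth muscle, was 5.54, 5.30, 6.0 and 6.19 in KO pools, against 6.57, 6.73, 7.30 and 7.06 in WT pools. Its groups did not overlap although the WT level was higher in the descending aorta, and it fell by 1.15 (SE 0.10, adjusted p = 0.000826). With its probe sets averaged the difference was -0.46 (limma, adjusted p = 0.015). Kcnn2, a small-conductance calcium-activated channel, fell by 1.11 (SE 0.12, adjusted p = 0.00186), and Trpm3, a cation channel, by 1.23 (SE 0.10, adjusted p = 0.000603). Ano1, the calcium-activated chloride channel of smooth muscle, fell by 0.55. Kcna5, a voltage-gated potassium channel, and Atp2b1, a calcium pump of the plasma membrane, fell by 0.59 and 0.39, both named after their values were seen. Itpr2, an inositol trisphosphate receptor, differed by -0.26 (adjusted p = 0.0547) and was not called.

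The 41 vasoactive genes split into 5 rises (12.2%, 2 to 5 with 1 array left out, 2 without the second KO ascending array or the second WT ascending array or the second WT descending array) and 5 falls (12.2%, 3 to 5 with 1 array left out, 3 without the first KO ascending array or the first KO descending array or the second WT ascending array or the first WT descending array). Pde5a, the phosphodiesterase that degrades cyclic GMP, was 9.11, 9.10, 8.71 and 8.80 in KO pools, against 9.77, 9.67, 9.32 and 9.38 in WT pools, and fell by 0.61 (SE 0.07, adjusted p = 0.00277). Gucy1a1, a subunit of the nitric oxide receptor that makes cyclic GMP, fell by 0.49 and was named after its value was seen. Edn1, the vasoconstrictor endothelin 1, rose by 0.49 (SE 0.07, adjusted p = 0.0061). The endothelin-converting enzyme gene Ece1 differed by -0.29 (adjusted p = 0.0716) and was not called.

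In TGF-beta and BMP signalling 8 of 40 genes rose (20%, 4 to 6 with 1 array left out, 4 without the first KO descending array or the second WT ascending array or the first WT descending array) and 4 fell (10%, 2 to 3 with 1 array left out), at a median of -0.022 (-0.0026 ascending, -0.0069 descending). Among ligands, Bmp2 was 4.86, 4.56, 4.27 and 3.81 in KO pools, against 5.40, 5.34, 4.80 and 4.93 in WT pools, and fell by 0.74 (SE 0.12, adjusted p = 0.00771), while Tgfb3 rose by 0.53. Among receptors, Tgfbr3, the co-receptor betaglycan, fell by 0.55 (SE 0.08, adjusted p = 0.00653). The inhibitors Skil and Smad7, both induced by TGF-beta, rose by 0.63 (SE 0.10, adjusted p = 0.00771) and 0.44 (SE 0.08, adjusted p = 0.0118). Gdf6 differed by 0.60 (adjusted p = 0.062) and was not called. Tgfb3 was named after its value was seen.

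Other growth factor genes rose in 8 cases (18.6%, 6 to 7 with 1 array left out) and fell in 5 (11.6%, 3 to 5 with 1 array left out) of 43. Hbegf, a ligand of the EGF receptor, rose by 0.85 (SE 0.09, adjusted p = 0.00189), Igfbp1 by 0.88 (0.44 in the ascending and 1.32 in the descending aorta) and the VEGF-family ligand Vegfd by 0.63. Wnt16 rose by 1.18 (SE 0.08, adjusted p = 0.000382), the largest called difference among 48 Wnt, Notch and hedgehog genes, of which 3 rose (6.25%, 1 to 3 with 1 array left out, 1 without the first KO ascending array or the first KO descending array) and 2 fell (4.17%, 0 to 2 with 1 array left out, 0 without the first WT descending array), shares near those over all genes tested. Of 40 guidance genes 6 rose (15%, 2 to 5 with 1 array left out, 2 without the first KO descending array or the second WT descending array) and 7 fell (17.5%, 4 to 7 with 1 array left out, 4 without the first KO descending array or the second WT ascending array or the first WT descending array). The netrin receptor gene Unc5b rose by 0.76 and the semaphorin receptor gene Plxna4 by 0.46, and the semaphorin genes Sema5a and Sema6a fell by 0.46 and 0.61.

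Immediate early genes encode transcription factors and phosphatases that are induced within minutes of growth factors, stretch or injury without new protein synthesis. Of 28 such genes 16 rose (57.1%, 11 to 15 with 1 array left out) and 1 fell (3.57%, 0 with any 1 array left out), at a median of 0.53 (0.73 ascending, 0.32 descending). Egr1, a zinc finger factor, was 8.96, 9.12, 7.96 and 8.79 in KO pools, against 7.33, 7.03, 6.85 and 7.21 in WT pools. The 4 KO arrays lay above the WT arrays, and Egr1 rose by 1.60 (SE 0.18, adjusted p = 0.00236). Nr4a1, an orphan nuclear receptor named after its value was seen, was 8.85, 8.90, 8.0 and 8.72 in KO pools, against 7.96, 7.49, 7.61 and 7.09 in WT pools, and rose by 1.08 (SE 0.18, adjusted p = 0.0102).

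Ier3 rose by 1.09 (SE 0.08, adjusted p = 0.000603), and the AP-1 subunit genes Fosb and Junb by 0.98 and 0.71. Of genes that damp the response, Dusp1 and Dusp5, MAP kinase phosphatases, rose by 0.53 and 0.66, and Zfp36, which destabilises messenger RNAs, by 0.58, all named after their values were seen. Btg2 differed by 0.51 (adjusted p = 0.0512) and was not called. The labels give no time between death and freezing for the pools, and its part in these differences was not tested.

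Cholesterol synthesis runs from acetyl-CoA through mevalonate, farnesyl diphosphate, squalene and lanosterol, and its genes are switched on together by SREBP-2 when ER cholesterol is low. Of 19 genes of sterol synthesis and its control 15 rose (78.9%, 10 to 14 with 1 array left out) and none fell. Their median was 0.75 (0.63 ascending, 0.63 descending). Hmgcs1, HMG-CoA synthase at the head of the pathway, was 8.47, 8.95, 9.34 and 9.35 in KO pools, against 7.53, 7.66, 8.10 and 8.13 in WT pools. All KO arrays were above all WT arrays, and it rose by 1.17 (SE 0.11, adjusted p = 0.00116). Next along the pathway, Fdps, which makes farnesyl diphosphate, rose by 1.27, and Sqle, squalene epoxidase, by 1.39. Cyp51, lanosterol demethylase, was 7.28, 7.59, 7.89 and 7.66 in KO pools, against 6.25, 6.09, 6.43 and 6.64 in WT pools, and rose by 1.25 (SE 0.10, adjusted p = 0.000795).

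Msmo1, the sterol C4-methyl oxidase, rose by 1.34 (SE 0.12, adjusted p = 0.00119), Hsd17b7, a ketosteroid reductase of the same steps, by 1.01, and Sc5d, a late sterol desaturase, by 0.85. Of the regulators, Insig1, which holds the SREBP chaperone in the ER, was 8.21, 8.33, 8.65 and 8.56 in KO pools, against 7.45, 7.26, 7.53 and 7.64 in WT pools. It rose by 0.97 (SE 0.08, adjusted p = 0.000741). Srebf2, the gene of SREBP-2, rose by 0.78 and Stard4, a cholesterol carrier, by 0.75. Ebp, a sterol isomerase, differed by 0.24 (adjusted p = 0.0738) and was not called. Fdps, Sqle, Hsd17b7, Sc5d, Srebf2 and Stard4 were named after their values were seen.

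The promoters of 2 of these genes are shown as the stretch of 250 bases before the RefSeq start (build GRCm38.p6), 5′ to 3′ on the gene's strand. For the list, 15 tested members had a window. Capitals mark the sterol response element TCACNCCAC and the CCAAT box, searched on both strands, so that ATTGG is a CCAAT box of the opposite strand. Hmgcs1 lies at chr13:119690101-119690350, plus strand, and Cyp51 at chr5:4104698-4104947, minus strand.
Hmgcs1: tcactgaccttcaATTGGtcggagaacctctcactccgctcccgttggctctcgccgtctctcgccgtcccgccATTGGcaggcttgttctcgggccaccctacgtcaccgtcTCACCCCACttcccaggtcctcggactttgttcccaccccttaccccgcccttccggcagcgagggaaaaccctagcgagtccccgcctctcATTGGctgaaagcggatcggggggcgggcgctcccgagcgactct
Cyp51: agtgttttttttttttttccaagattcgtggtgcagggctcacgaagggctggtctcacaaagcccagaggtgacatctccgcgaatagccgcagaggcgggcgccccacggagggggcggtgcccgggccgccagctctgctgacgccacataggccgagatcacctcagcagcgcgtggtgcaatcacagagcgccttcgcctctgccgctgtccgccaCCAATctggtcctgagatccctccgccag
The CCAAT box stood in 15 of 15 windows of the list, against 38.8% of the windows of all tested genes and 37.5% of all windows of that length. It was as well in 18 of 23 windows of the ER stress list and 20 of 26 of the cell cycle list described below, and in 9 of 24 of the immediate early list. TCACNCCAC stood in 1 of 15, that of Hmgcs1, against 1.26% of tested genes and 2 of 23 windows of the ER list. The 15 motifs looked at, of which 5 are given, were narrowed down after their matches had been seen. A match describes the letters and shows no binding.

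**Figure D3:**
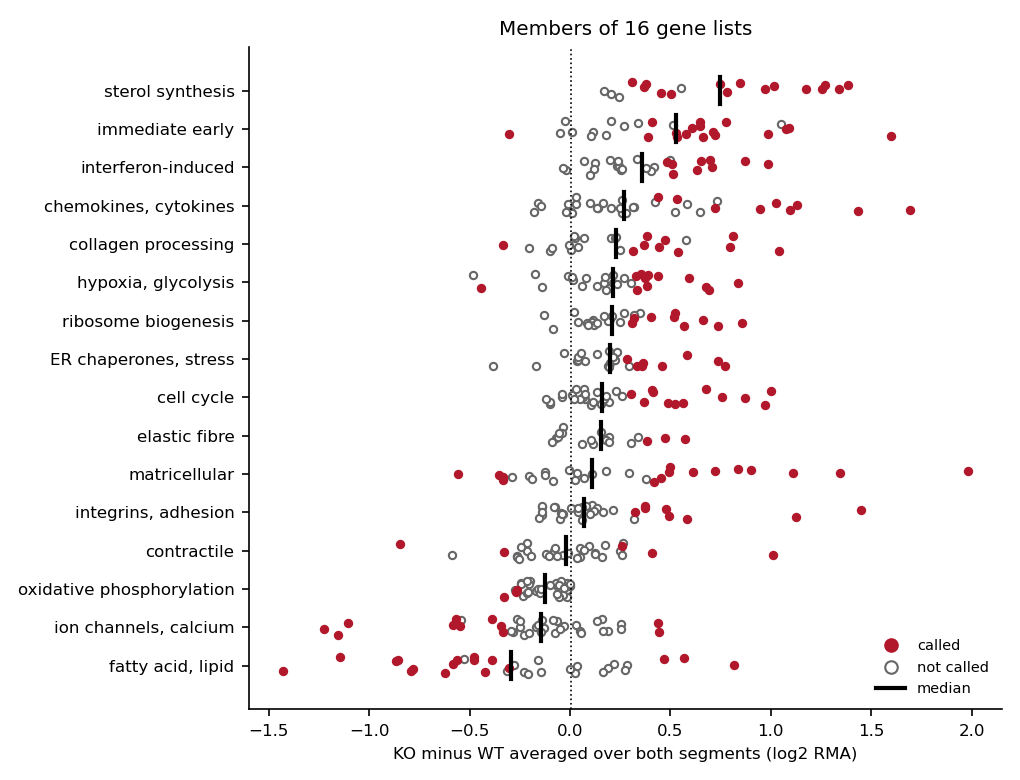
Difference in log2 RMA between KO and WT, averaged over both segments (x axis), for each tested member of 16 gene lists, ordered by median. Filled points were called, open points were not, the black bar is the list median and the dotted line the median of all 16635 genes, 0.0036; the sterol list stands furthest to the right at a median of 0.75 and the fatty acid list furthest to the left at -0.29.

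Of 32 fatty acid and lipid genes 14 fell (43.8%, 7 to 13 with 1 array left out, 7 without the first WT descending array) and 3 rose (9.38%, 1 to 3 with 1 array left out, 1 without the first KO descending array or the second KO descending array or the first WT descending array), at a median of -0.29 (-0.28 ascending, -0.26 descending). Cpt1a, the carnitine transferase that admits fatty acids to mitochondria, was 8.29, 8.27, 8.14 and 8.34 in KO pools, against 8.88, 8.86, 8.91 and 8.87 in WT pools. Every KO array was below every WT array, and it fell by 0.62 (SE 0.07, adjusted p = 0.00311). Cd36, a fatty acid transporter, fell by 1.15 and Acadl, a dehydrogenase of beta-oxidation, by 0.56, both named after their values were seen. Fasn, fatty acid synthase, ran the other way and rose by 0.82 (SE 0.08, adjusted p = 0.00167), and Fads1, a desaturase, differed by 0.27 (adjusted p = 0.077) and was not called.

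Of 19 adipose markers, some of them also in the fatty acid list, 7 fell (36.8%, 4 to 8 with 1 array left out, 4 without the first KO descending array or the second WT ascending array or the first WT descending array) and none rose, at a median of -0.52 (-0.46 ascending, -0.50 descending). Their summed linear signal was 4210 to 9445 on KO arrays and 7509 to 12620 on WT arrays. Those ranges overlap only between segments, since it was 4210 and 5350 on KO and 7509 and 9550 on WT ascending arrays, and 8170 and 9445 on KO and 12620 and 12060 on WT descending arrays. Adipoq, adiponectin, fell by 1.08 (SE 0.15, adjusted p = 0.00494) and Cidea, a lipid droplet protein of brown fat, by 1.10 (SE 0.15, adjusted p = 0.00494). Fewer fat cells and less RNA per cell cannot be told apart in such bulk tissue, here or for any other cell type, and the part of fat tissue in the fatty acid list was not tested.

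Of 30 glycolysis and hypoxia genes 11 rose (36.7%, 5 to 10 with 1 array left out, 5 without the second WT descending array) and 1 fell (3.33%, 0 to 1 with 1 array left out, 0 without the first KO ascending array or the first KO descending array or the second WT ascending array or the first WT descending array), at a median of 0.22 (0.21 ascending, 0.23 descending). Slc2a1, the glucose transporter GLUT1, was 8.30, 8.58, 8.23 and 8.27 in KO pools, against 7.68, 7.64, 7.76 and 7.53 in WT pools. The KO arrays were above the WT arrays, and it rose by 0.69 (SE 0.09, adjusted p = 0.00451). Hk2, hexokinase 2, rose by 0.68, Pfkl, a phosphofructokinase, by 0.59, and Slc16a3, a lactate exporter, by 0.84. Mif differed by 0.27 (adjusted p = 0.0629) and was not called. Among 32 genes of oxidative phosphorylation none rose and 3 fell (9.38%, 0 to 1 with 1 array left out), at a median of -0.12 (-0.064 ascending, -0.20 descending). Cox4i1, a subunit of cytochrome oxidase, differed by -0.24 (adjusted p = 0.0676).

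The unfolded protein response raises chaperones when the ER holds unfolded protein. Of 26 ER chaperone and stress genes 8 rose (30.8%, 4 to 6 with 1 array left out, 4 without the second KO ascending array or the first KO descending array or the first WT descending array) and none fell, at a median of 0.20 (0.21 ascending, 0.18 descending). Hyou1, an ER chaperone, was 7.22, 7.31, 7.40 and 7.30 in KO pools, against 6.52, 6.47, 6.54 and 6.60 in WT pools, and rose by 0.77 (SE 0.07, adjusted p = 0.00116). Calr, calreticulin, which folds glycoproteins, was 10.75, 10.89, 10.98 and 10.83 in KO pools, against 10.28, 10.18, 10.22 and 10.45 in WT pools. Its rise of 0.58 (SE 0.09, adjusted p = 0.00633) was small and its arrays did not overlap. Sdf2l1 and Creld2, 2 ER stress response genes, rose by 0.73 and 0.46, and Canx, calnexin, differed by 0.23 (adjusted p = 0.0635) and was not called.

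For Calr at chr8:84846932-84847181, minus strand and Creld2 at chr15:88819396-88819645, plus strand, the capitals mark the ER stress response element, a CCAAT box followed by CCACG with 9 bases of any kind between them.
Calr: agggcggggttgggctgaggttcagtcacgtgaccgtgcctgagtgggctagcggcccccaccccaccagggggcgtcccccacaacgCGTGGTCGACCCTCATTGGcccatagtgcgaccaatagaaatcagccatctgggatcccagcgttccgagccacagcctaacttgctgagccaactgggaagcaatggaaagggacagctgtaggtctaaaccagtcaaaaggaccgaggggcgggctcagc
Creld2: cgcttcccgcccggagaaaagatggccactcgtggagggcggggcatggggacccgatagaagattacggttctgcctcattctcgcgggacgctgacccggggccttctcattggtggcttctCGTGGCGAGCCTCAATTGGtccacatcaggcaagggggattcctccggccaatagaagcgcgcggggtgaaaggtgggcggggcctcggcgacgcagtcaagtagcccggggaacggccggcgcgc
The element stood on either strand in 7 of 23 windows of the ER list, 4 of them among the 6 called genes that had a window, against 0.14% of all tested genes and 0.13% of all windows. Among cytosolic heat shock genes 5 of 14 rose (35.7%, 2 to 4 with 1 array left out, 2 without the second KO ascending array or the first KO descending array or the second WT descending array) and none fell. Hsph1, a large chaperone, rose by 0.67 (SE 0.09, adjusted p = 0.0045) and Chordc1, a partner of HSP90, by 0.46, and Hspb1 differed by -0.27 (adjusted p = 0.0836). Of 23 genes of amino acid supply 6 rose (26.1%, 4 to 5 with 1 array left out) and 1 fell (4.35%, 0 to 1 with 1 array left out). Aldh18a1, which starts proline synthesis, rose by 0.78 (SE 0.08, adjusted p = 0.00208), Shmt2, a mitochondrial serine enzyme, by 0.63, and the arginine transporter gene Slc7a1 by 0.56.

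Of 34 cell cycle genes 12 rose (35.3%, 7 to 10 with 1 array left out, 7 without the second KO ascending array or the first KO descending array or the first WT descending array) and none fell, at a median of 0.16 (0.031 ascending, 0.28 descending). Mcm2, a subunit of the replicative helicase that is loaded at origins, was 6.98, 7.08, 7.44 and 7.21 in KO pools, against 6.30, 6.08, 6.16 and 6.15 in WT pools. It rose by 1.00 (SE 0.09, adjusted p = 0.00101). Mcm5, of the same helicase, was 6.72, 6.99, 7.32 and 7.09 in KO pools, against 6.20, 6.19, 5.77 and 6.07 in WT pools, and rose by 0.97 (SE 0.10, adjusted p = 0.0019). The KO arrays of both were above their WT arrays. Mcm3 and Mcm4 rose by 0.76 and 0.68, Cdc6, which loads the helicase, by 0.87, and Ccne1, cyclin E1, by 0.52. The 2 Mcm genes last named and Ccne1 were chosen after their values were seen. Top2a, a topoisomerase of dividing cells, differed by 0.26 (adjusted p = 0.0948) and was not called.

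The window of Mcm5, at chr8:75109259-75109508, plus strand, is shown because it holds 2 overlapping matches to the E2F site TTTNGCGC, 1 on each strand, in capitals.
Mcm5: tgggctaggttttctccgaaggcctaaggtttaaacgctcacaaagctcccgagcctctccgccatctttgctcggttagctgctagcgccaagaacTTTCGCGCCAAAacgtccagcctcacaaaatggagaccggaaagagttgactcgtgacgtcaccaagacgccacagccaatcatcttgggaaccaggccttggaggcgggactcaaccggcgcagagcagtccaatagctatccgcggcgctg
That motif stood in 3 of 26 windows of the list, against 2% of tested genes. For comparison, the short form of the cyclic AMP response element, TGACG, stood in 16 of 24 windows of the immediate early list, against 26.8% of tested genes, 7 of 15 windows of the sterol list, 10 of 23 of the ER list and 6 of 26 of the cell cycle list. It is in capitals in Nr4a1, at chr15:101266596-101266845, plus strand.
Nr4a1: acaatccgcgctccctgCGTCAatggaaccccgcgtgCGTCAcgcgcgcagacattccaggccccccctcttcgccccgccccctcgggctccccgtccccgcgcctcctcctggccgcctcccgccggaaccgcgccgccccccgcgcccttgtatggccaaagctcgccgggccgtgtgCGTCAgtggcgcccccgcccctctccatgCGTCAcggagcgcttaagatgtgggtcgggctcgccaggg

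Genes of ribosome biogenesis and Myc targets, kept in the same list, rose in 9 of 27 cases (33.3%, 5 to 7 with 1 array left out, 5 without the second KO ascending array or the first KO descending array or the second WT ascending array or the first WT descending array), and none fell, at a median of 0.21 (0.26 ascending, 0.26 descending). Srm, spermidine synthase and a Myc target, was 8.77, 9.01, 8.78 and 8.73 in KO pools, against 8.15, 8.0, 7.90 and 7.80 in WT pools, and rose by 0.86 (SE 0.08, adjusted p = 0.00144). Noc2l rose by 0.74, the nucleolar proteins Nop58 and Nolc1 by 0.57 and 0.52, and Pes1 differed by 0.25 (adjusted p = 0.0618) and was not called. Myc itself, named after its value was seen, rose by 0.66 (SE 0.10, adjusted p = 0.00747). By annotation, 13 of 66 small nucleolar RNAs were called, all 13 higher, and 77 of 1089 long noncoding RNAs, 15 higher and 62 lower, against 1786 of 14917 protein-coding genes, 994 higher and 792 lower.

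Among 17 clock genes 2 rose (11.8%, 2 with any 1 array left out) and 3 fell (17.6%, 1 to 4 with 1 array left out). Bhlhe40 and Bhlhe41, repressors of the clock, rose by 0.82 (SE 0.13, adjusted p = 0.00807) and 0.82 (SE 0.13, adjusted p = 0.00807), and Npas2, a partner of BMAL1, fell by 0.63 (SE 0.10, adjusted p = 0.00845). The labels give no hour of collection. In the 23 retinoid and steroid genes 3 rose (13%, 0 to 2 with 1 array left out, 0 without the first KO ascending array or the second KO descending array or the first WT ascending array or the second WT descending array) and 2 fell (8.7%, 2 to 5 with 1 array left out, 5 without the first WT ascending array). Rbp7, a retinol carrier, fell by 1.15 (SE 0.12, adjusted p = 0.00177) and Zbtb16, a glucocorticoid-induced factor, by 0.88 (SE 0.11, adjusted p = 0.00445), while Per1, a clock gene that glucocorticoids also induce, differed by -0.33 (adjusted p = 0.0526) and was not called. Among 20 growth arrest genes 4 rose (20%, 3 to 4 with 1 array left out) and 3 fell (15%, 1 to 4 with 1 array left out). Plk2 and Plk3 rose by 0.54 and 0.64, and Trp53inp1 fell by 1.17 (SE 0.17, adjusted p = 0.00653).

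In 25 other collagens 2 rose (8%, 2 with any 1 array left out) and 1 fell (4%, 0 to 2 with 1 array left out, 0 without the first WT descending array, 2 without the first WT ascending array), and in 21 basement membrane genes 1 rose (4.76%, 0 to 1 with 1 array left out) and 2 fell (9.52%, 0 to 2 with 1 array left out, 0 without the first WT descending array). Of 21 mechanosensing genes 3 rose (14.3%, 0 to 1 with 1 array left out) and 1 fell (4.76%, 0 to 1 with 1 array left out). Of 24 oxidative defence genes 1 rose (4.17%, 0 to 1 with 1 array left out) and 2 fell (8.33%, 0 to 1 with 1 array left out, 0 without the first KO ascending array or the first KO descending array or the first WT descending array). Of 18 bone and cartilage genes none rose and 1 fell (5.56%, 0 to 1 with 1 array left out).

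Of 34 chemokine and cytokine genes 9 rose (26.5%, 6 to 11 with 1 array left out) and none fell, at a median of 0.27 (0.45 ascending, 0.18 descending). Ccl8 rose by 0.95 (SE 0.11, adjusted p = 0.00295), Ccl11 by 0.72, and the neutrophil attractants Cxcl1 and Cxcl2 by 1.09 and 1.02. Of 26 interferon-induced genes 9 rose (34.6%, 6 to 11 with 1 array left out) and none fell, at a median of 0.36 (0.38 ascending, 0.30 descending). Isg15, a ubiquitin-like protein, rose by 0.99 (SE 0.13, adjusted p = 0.0045), Oas2 by 0.70 and Irf7 by 0.65. In complement and coagulation 7 of 22 rose (31.8%, 4 to 7 with 1 array left out, 4 without the second WT descending array) and 1 fell (4.55%, 1 with any 1 array left out). F13a1, a factor XIII subunit, rose by 0.59, Plaur, the urokinase receptor, by 0.70, and Cd59a, a complement inhibitor, fell by 0.54.

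Of 27 macrophage markers 13 rose (48.1%, 6 to 13 with 1 array left out, 6 without the first WT descending array) and none fell (0 to 1 with 1 array left out), at a median of 0.34 (0.51 ascending, 0.23 descending), and their summed signal was 9167 to 11320 on KO arrays and 7809 to 9319 on WT arrays. Those ranges overlap only between segments, and the level was higher in the descending aorta of both genotypes. The sum was 9997 and 9167 on KO and 8077 and 7809 on WT ascending arrays. On descending arrays it was 11320 and 10530 for KO and 9319 and 9057 for WT. Cx3cr1 rose by 0.89 (SE 0.09, adjusted p = 0.00189), and Fcer1g differed by 0.29 (adjusted p = 0.0574) and was not called. Of 18 neutrophil markers 11 rose (61.1%, 6 to 11 with 1 array left out, 6 without the first WT descending array), at a median of 0.70 (0.94 ascending, 0.44 descending), and their summed signal, 3372 to 5884 on KO arrays and 1177 to 2722 on WT arrays, did not overlap. S100a8, a calprotectin subunit, was 10.80, 10.71, 9.57 and 10.28 in KO pools, against 8.68, 7.71, 8.62 and 9.20 in WT pools, and rose by 1.79 (SE 0.24, adjusted p = 0.00479). The listed markers Ly6g, Stfa2 and Padi4 were below the dim limit and were not tested. The 11 rises include the stefin gene Stfa3, given above with the large changes. The part of these cells in the chemokine and interferon differences was not tested.

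Of 10 platelet markers 6 rose (60%, 2 to 6 with 1 array left out, 2 without the first KO ascending array or the first WT ascending array or the first WT descending array), at a median of 0.44 (0.75 ascending, -0.077 descending). Their summed signal was 3001 and 2743 on KO and 1765 and 1838 on WT ascending arrays, and 2234 and 1876 on KO and 2018 and 2191 on WT descending arrays, so that the groups were apart in the ascending aorta and overlapped in the descending. Of 10 erythroid markers 1 rose (10%, 0 to 1 with 1 array left out, 0 without the second KO ascending array or the first KO descending array or the first WT descending array), with a summed signal of 477 to 689 on KO arrays and 391 to 520 on WT arrays. Mast cell markers fell in 2 of 8 cases (25%, 0 to 4 with 1 array left out, 4 without the first WT ascending array), and none of 17 lymphocyte and thymus markers was called, although 1 was called higher without the first WT ascending array and 3 lower without the second. The lymphocyte sum was 611 to 712 on KO arrays and 574 to 1255 on WT arrays, where the first WT ascending array held the 1255.

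Of 30 endothelial markers 10 fell (33.3%, 4 to 8 with 1 array left out, 4 without the first KO descending array or the second WT ascending array or the first WT descending array) and 2 rose (6.67%, 1 to 2 with 1 array left out, 1 without the second WT ascending array or the first WT descending array), at a median of -0.23 (-0.20 ascending, -0.19 descending), and their summed signal was 8127 to 11220 on KO arrays and 9643 to 12390 on WT arrays, higher in descending than in ascending aorta. The sum was 8127 and 8594 on KO and 9643 and 10210 on WT ascending arrays. On descending arrays it was 11220 and 10550 for KO and 12390 and 11720 for WT, so the ranges overlap only between segments. Kdr, the main VEGF receptor, was 6.46, 6.67, 7.46 and 7.41 in KO pools, against 7.20, 7.18, 8.01 and 7.95 in WT pools. Within each segment the KO arrays were below the WT arrays, and Kdr fell by 0.58 (SE 0.08, adjusted p = 0.0045). Gpihbp1, which anchors lipoprotein lipase on capillaries, fell by 0.75 and Aplnr, the apelin receptor, by 0.93. Flt1, a decoy VEGF receptor, ran the other way and rose by 0.76 (SE 0.12, adjusted p = 0.00707), and Cdh5, VE-cadherin, differed by -0.25 (adjusted p = 0.0541) and was not called.

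Of 24 fibroblast markers 2 rose (8.33%, 1 with any 1 array left out) and 5 fell (20.8%, 2 to 4 with 1 array left out), and their summed signal was 22610 to 24200 on KO arrays and 26070 to 27830 on WT arrays. These ranges did not overlap, whereas the mean log2 values of the markers did. Pdgfra, a PDGF receptor of fibroblasts, fell by 0.57 (SE 0.09, adjusted p = 0.0072) and Dpt, dermatopontin, by 0.60 (SE 0.08, adjusted p = 0.00479), while Meox1, a factor of activated fibroblasts, rose by 0.81 (SE 0.08, adjusted p = 0.00184). The part of fibroblasts in the matrix differences was not tested.

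Liver-made plasma protein genes rose in 9 of 18 cases (50%, 3 to 15 with 1 array left out, 3 without the second WT descending array, 15 without the first KO descending array), at a median of 1.00 (0.37 ascending, 1.53 descending), and their summed signal was 1729 to 5131 on KO arrays and 809 to 1363 on WT arrays. The second KO descending array was the highest at 5131, against 1729 to 2096 on the other KO arrays. Alb, albumin, rose by 1.54 (SE 0.22, adjusted p = 0.00587). Lung epithelium markers fell in 3 of 15 cases (20%, 2 to 4 with 1 array left out), and their summed signal was 526 to 588 on KO arrays and 572 to 2323 on WT arrays. Sftpc, a surfactant protein gene, was 4.56, 4.83, 4.74 and 5.07 in KO pools, against 4.50, 4.80, 8.37 and 10.15 in WT pools. The 2 WT descending arrays were high and the other 6 were low, and the averaged difference of -2.15 (SE 0.32, adjusted p = 0.00665) came to 0.043 in the ascending and -4.35 in the descending aorta. With genotype plus segment as the design, Sftpc was not called (limma, adjusted p = 0.106). Of 20 heart muscle markers 1 rose (5%, 0 to 1 with 1 array left out) and 1 fell (5%, 1 to 4 with 1 array left out, 4 without the first WT ascending array), at a median of -0.23 (0.015 ascending, -0.34 descending). None of 25 nerve, 17 skeletal muscle and 11 mesothelium markers was called, and with 1 array left out at most 1 in each was. The part of such tissue in any difference above was not tested.

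**Figure D4:**
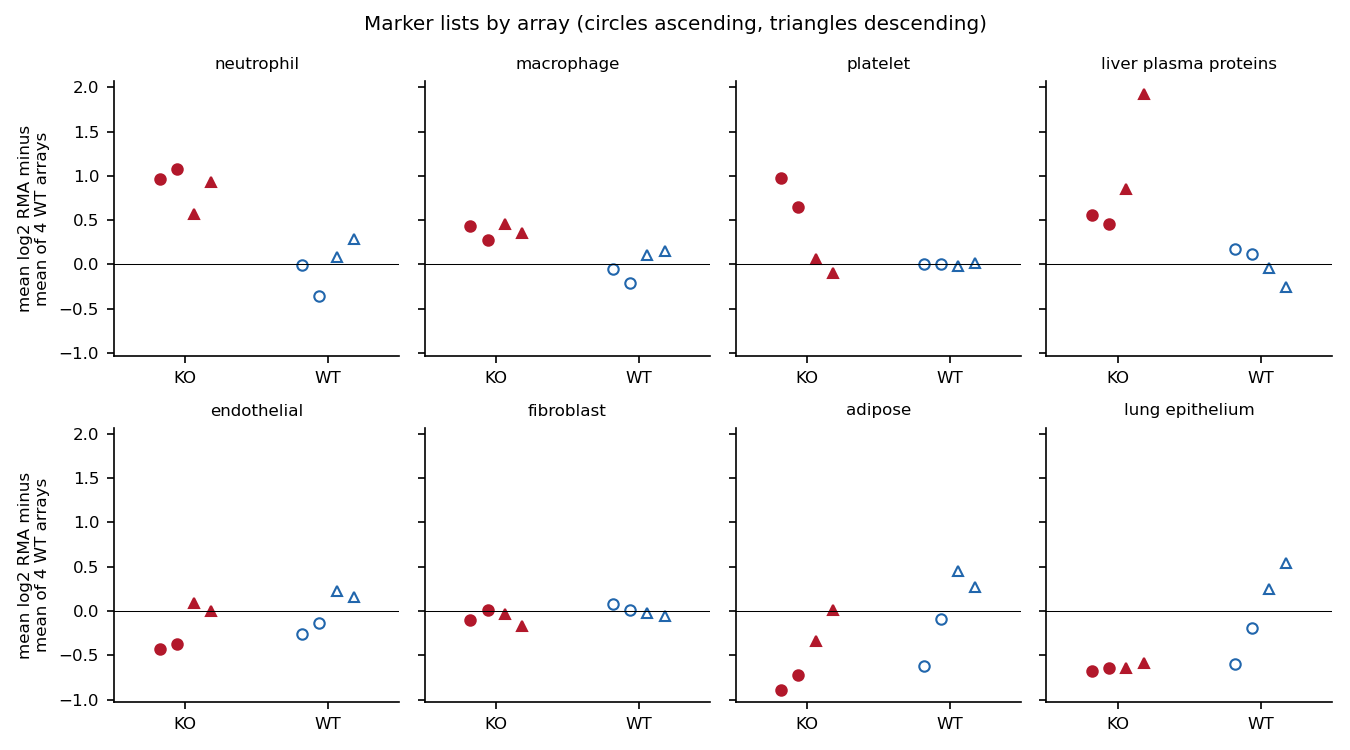
Mean log2 RMA of the markers of 8 cell types or tissues on each array, minus the mean of the 4 WT arrays (y axis), with KO arrays left of WT arrays in each panel. Circles are ascending and triangles descending pools; neutrophil, macrophage and liver values lie higher on the KO arrays than on the WT arrays, the other lists overlap, and the highest liver value belongs to the second KO descending array.

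Of the 1257 genes called on average and in neither segment alone, 990 had arrays that did not overlap. Insr, the insulin receptor, was 8.48, 8.56, 8.32 and 8.37 in KO pools, against 8.93, 9.11, 8.98 and 8.80 in WT pools. It fell by 0.52 (SE 0.08, adjusted p = 0.00728), with -0.50 in the ascending and -0.55 in the descending aorta. Adgrl4, an adhesion receptor of endothelium, fell by 0.62 (SE 0.10, adjusted p = 0.00733), and Lpcat2, which makes platelet-activating factor, rose by 0.68 (SE 0.11, adjusted p = 0.00745). Angptl1 rose by 0.83 (adjusted p = 0.00735), Megf6 by 0.69 (adjusted p = 0.00745) and the lectin receptor gene Clec4a3 by 0.62 (adjusted p = 0.00742).

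Around Lox, 2 of the 20 nearest tested genes, 10 on each side in the RefSeq order, were called. These were Sema6a, lower as given above, and the predicted gene Gm19466, which rose by 1.01 (SE 0.09, adjusted p = 0.00114) and was named because it is a neighbour. The other 18 differed by at most 0.26 either way. The share called was 11.4% over all tested genes.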

How the data were processed

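Total RNA of 8 pools was amplified, labelled and hybridised to Affymetrix mouse gene arrays, 1 array per pool, per the labels' protocols. The authors deposited log2 values, computed by RMA in Affymetrix Expression Console, per the submitters' processing notes, which name no version. RMA scales all arrays to 1 distribution, so levels are relative to each pool's RNA. No genome build for the probes is stated in the labels or the file.

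Of 41345 probe sets, 23521 carried a single gene symbol in GEO's platform table, 1814 carried several and 16010 carried none. Each of 22180 genes was represented by its brightest probe set, by mean over the 8 arrays, and 1082 of them had a choice. Genes averaging under the 25th percentile, 4.11 log2, counted as dim and were dropped, leaving 16635.

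Genes were fitted with limma 3.58.1 under R 4.3.3, using 1 coefficient per group and eBayes (residual df 4, prior df 4.51). The contrast was the mean of KO minus WT in the ascending and the descending aorta, with each segment and their interaction beside it, and Benjamini-Hochberg adjustment ran over every gene tested. The number of arrays limits the precision. Promoter windows were matched by symbol to RefSeq (27025 genes with a window, 12887 of them tested). Plots used matplotlib 3.10.9 (python 3.11.15).

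The 51 gene lists (1372 members written, 1220 tested), tests and alternatives were chosen with earlier results of these data known. The naming rule took the lysyl oxidase family, the called genes without array overlap that had the smallest p in the small and medium bands (8 in each direction) or the largest change in the large band (6 in each direction), up to 5 members of each list by p, with at least 1 not called where any was not, and up to 6 genes called in neither segment. In the bands, predicted and clone names, small RNAs and olfactory or vomeronasal receptors were passed over. It gave 285 genes, 200 of them called, and 171 of the 285 appear with values. That 171 is not the set of 171 called genes given with values, which also holds genes named outside the rule. Rule genes left without values include some not called, such as Gpc4 and Erbb4, and some called, such as Tubb1 and Gp6. The 38 called genes of the rule that lost their call without 1 of the arrays are counted in their lists and not given with values, among them Fmo4 of the large falls. Another 24 genes were named outside the rule.

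Alternatives were a dim filter at the 50th percentile or none, a trended robust prior, genotype plus segment or genotype alone as the design, the replicate number as a block, a random block of genotype and replicate number, cyclic loess, arrays shifted to 1 median, array weights, probe sets averaged per gene or all tested separately, a test against 1.2-fold, and each array left out in turn.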

Additional observations from a re-analysis of the deposited data

Results flagged for a closer look

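In 13 of the 390 groups of 4 arrays behind the named genes, 1 array lay further from the other 3 than Dixon's critical value for 4 samples allows. Each group mixed ascending and descending pools, so the usual chance rate of about 1 in 20 does not hold here. Among KO arrays, Atp1b1 was 9.41 on the first ascending array, against 9.80 to 9.84 on the others, and Unc5b was 7.22 on the second descending array, against 7.45 to 7.49. The second KO ascending array stood apart for Col5a1 at 8.63, against 8.87 to 8.89 on the others, for Itga5 at 9.57, against 9.03 to 9.05, and for Ccl8 at 5.47, against 5.79 to 5.82. Megf6 was 7.33 on the second KO descending array, against 7.43 to 7.45.

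Among WT arrays, the first ascending array stood apart for Mmp11 at 8.16, against 7.94 to 7.97 on the others, for Kcna5 at 5.85, against 6.20 to 6.25, and for Ebp at 6.35, against 6.26 to 6.27. Btg2 was 8.88 on the first WT descending array, against 8.58 to 8.62, and Cd59a 7.51, against 7.22 to 7.25. On the second WT descending array Bhlhe40 was 6.35, against 6.95 to 7.06, and Plaur 6.69, against 6.90 to 6.94.

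Loxl4 moved in opposite directions in the segments without overlap of the arrays in either, -0.059 in the ascending and 0.19 in the descending aorta, a difference between the effects of -0.25. In limma's interaction term it was not called.

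Of 12094 probe sets with no or several gene symbols that were tested with all probe sets, 69 were called higher and 92 lower in KO aorta, and they are not named here.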

How the results depend on the processing

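Lox stayed called under all 21 alternative settings, with differences of -2.81 to -2.72. The number of called genes was 691 (381 higher, 310 lower, 229 of them small without overlap) when all probe sets were tested separately, and 1256 (688 higher, 568 lower) with genotype alone as the design. It was 162 (106 higher, 56 lower, with 0 small and 77 medium without overlap) in the test against 1.2-fold. That test asks whether a change exceeds 1.2-fold, which no small change without overlap was shown to do. The other alternatives that kept all arrays stayed within 1.5 times. Shifting arrays to 1 median gave 887 higher and 958 lower, so which direction had more calls depended on the scaling. With 1 array left out, the counts ran from 782 to 1317 called genes, 470 to 700 higher, 312 to 628 lower, 364 to 694 small, 247 to 348 medium and 72 to 100 large without overlap, where a group's lone array borrowed the spread of the remaining groups. The interaction called 0 genes, 1 with a trended robust prior and 0 to 11 with 1 array left out, 11 without the first KO descending array. No named gene changed direction under any setting, and 132 of the 171 called ones kept their call under every setting but the 1.2-fold test. In that test 86 of the 171 lost it, and 73 kept it under every setting. The filter at the 50th percentile left 158 of the 171 to be tested, and those not tested were counted as kept. Of the 171, 30 lost their call with genotype alone as the design, 15 with all probe sets tested separately and 3 with genotype plus segment (Abi3bp, Mmp8 and Sftpc). Ccn2 lost it with probe sets averaged, where the difference of Kcnma1 was -0.46 and that of Ccn2 0.30. The 1 list median over 0.1 in size that changed sign was that of the lymphocyte and thymus markers. Deviations of same-numbered arrays from their group means correlated at -0.10 to 0.13 between groups. With 2 arrays a group, that cannot tell whether pools were paired or shared pups. The replicate block called 1725 genes (934 higher, 791 lower), 1598 of them called without it, and changed no call of a named gene.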
